A study of Arabidopsis thaliana with 24 samples.

Results

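The response of mpk11 mutant seedlings of Arabidopsis thaliana to the elicitor flg22 at 30 min was measured on 6 of the 24 arrays of the series. These were the 3 arrays labelled mpk11, 30 min and flg22 and the 3 labelled mpk11, 30 min and mock, which were compared by set number (sets 1 to 3). All 576 probes of the array are described, of which 181 carry a gene name and 395 are unnamed here. The mutant is the T-DNA line SALK049352 in the Col background, and a single line stands for the genotype. Seedlings 10 days old received 1 µM flg22 or, as mock, water, after 48 h in fresh liquid medium, and the RNA was that of their leaves, per the labels' protocols. Wild-type Col seedlings with the same treatments at 30 min and mpk11 seedlings at 3 h, each with 3 mock and 3 flg22 arrays, serve for comparison. No label says whether a set was a separate batch of plants. The p-values below therefore describe the spread between these samples, part or all of which may be technical.

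The peptide flg22 is a conserved stretch of bacterial flagellin. Plant cells bind it with the receptor kinase FLS2, and within minutes calcium enters the cytosol, reactive oxygen is made and cascades of MAP kinases are switched on, MPK11 among them. Early transcripts of this response typically encode transcription factors of the WRKY and zinc-finger families, calcium sensors and ubiquitin ligases, while secreted defence proteins and enzymes of defence metabolism are often later. None of 17 genes of flagellin perception and the MAP kinase cascade, MPK11 included, was among the named probes, so the genotype label could not be checked by the mutated gene. None of 15 leaf and root marker genes was among them either. The single photosystem gene, LHCB4.3, an antenna protein of photosystem II, read 3.69, 3.85 and 4.06 in mock sets 1 to 3 and 3.48, 4.03 and 4.19 with flg22.

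Values are the deposited log values, taken as log2 because the base is not stated, and a change is the flg22 value less the mock value. Higher or lower, rose or fell, is used for a limma adjusted p below 0.05 over all 576 probes, with the set as a block. The number of arrays limits the precision, and the median standard error of a change was 0.16. The 3 mock arrays had medians of 3.67, 3.53 and 3.61, and the 3 flg22 arrays of 4.08, 4.04 and 4.17. All 3 flg22 arrays thus lay above all 3 mock arrays in their median, and each count below depends on whether that difference is kept. Within an array many values recurred exactly, for example 2.41 in mock set 2 for AT2G18210, AT3G54150 and AT5G39670, and no detection limit is given for such low values. Values of flg22 arrays correlated across probes at 0.981 to 0.984 with each other and at 0.812 to 0.855 with mock arrays, and probes are not independent replicates.

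The mpk11 response at 30 min was mainly a rise of transcripts in the deposited scaling, to which this paragraph keeps. After median centring or quantile normalization more probes were lower than higher, as given below. Of 576 probes 135 were higher with flg22 (23.4% of those tested) and 14 were lower (2.43%), so that 149 passed (25.9%) and 427 did not pass in either direction. Among those that rose, 8 did so by 4 log2 units or more, 11 by 3 to 4, 24 by 2 to 3, 41 by 1 to 2 and 51 by less than 1. No probe was lower by 1 or more, and the lowest change was -0.86. A rise of at least 1 that also passed was thus found for 84 probes (14.6%), and for 71 the 95% interval of the change lay above 1. As the arrays measure whole leaves, a change in RNA per cell and a change in the number of cells that hold a transcript cannot be told apart.

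The rises were alike in size from set to set. The probes called higher or lower were picked by a fit to these same arrays. Their separation and evenness are thus partly built in and are no separate evidence of repeatability. Every flg22 array lay above every mock array for 126 of the 135 probes that rose, beside 147 such probes in the whole table (25.5%). In each single set 88, 89 and 89 probes were higher by at least 1, and 72 were so in all 3. The median difference of the probes that rose was 1.37, 1.40 and 1.39 in sets 1, 2 and 3. The falls were less even, since the median difference of the 14 lower probes was -0.86 in set 1 but -0.39 in both other sets. For 13 of these 14 every flg22 array lay below every mock array, beside 30 probes in the table (5.21%).

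**Figure D1:**
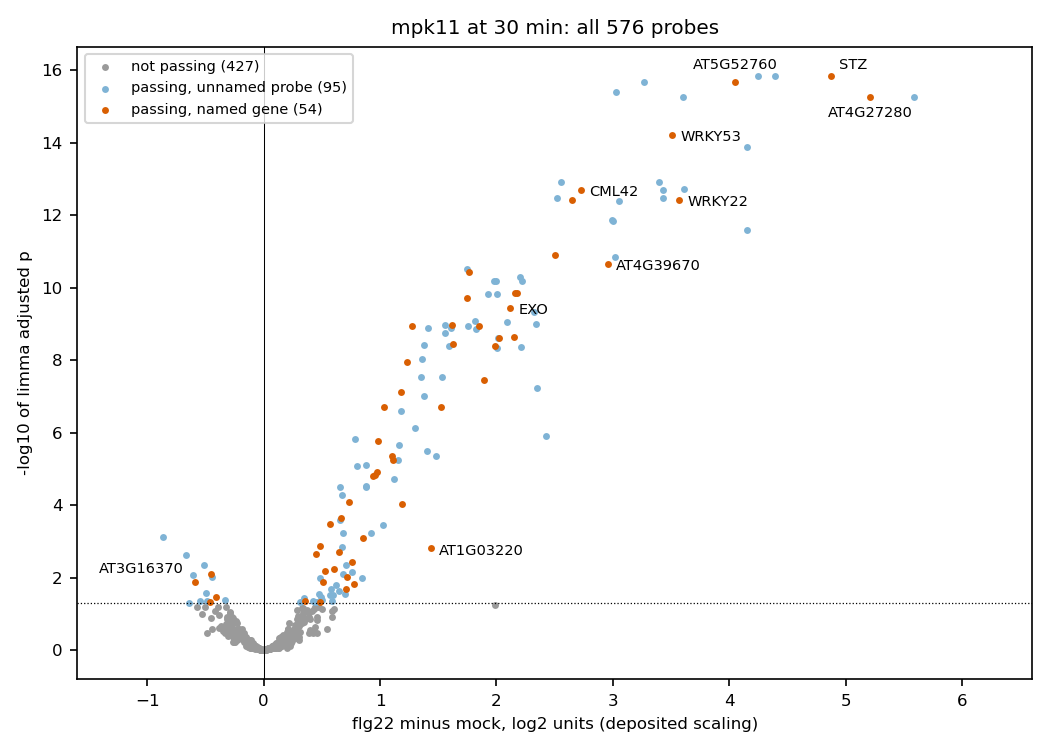
Change of each of the 576 probes (x axis, flg22 minus mock in log2 units) against the negative log10 of its limma adjusted p (y axis), with the dotted line at 0.05. In the deposited scaling, shown here, the 54 named genes and 95 unnamed probes that passed lie mostly to the right of 0, up to 5.59, and none lies below -1.

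How many probes count as lower rests on the scaling of the arrays. Centring each array on its median moved every change by -0.50 and gave 91 higher (15.8%) and 313 lower (54.3%). Quantile normalization gave 98 higher (17%) and 217 lower (37.7%), and centring on 22 named genes of the basal machinery gave 114 (19.8%) and 34 (5.9%). Without the set as a block the counts were 118 and 9. Of the 149 probes that passed in the deposited scaling, 12 had a change of the other sign after median centring, 6 after quantile normalization and 0 after centring on basal genes. The counts of gene group members below are to be read against these shares of all probes and, as deposited, against 23.4% higher and 2.43% lower.

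**Figure D2:**
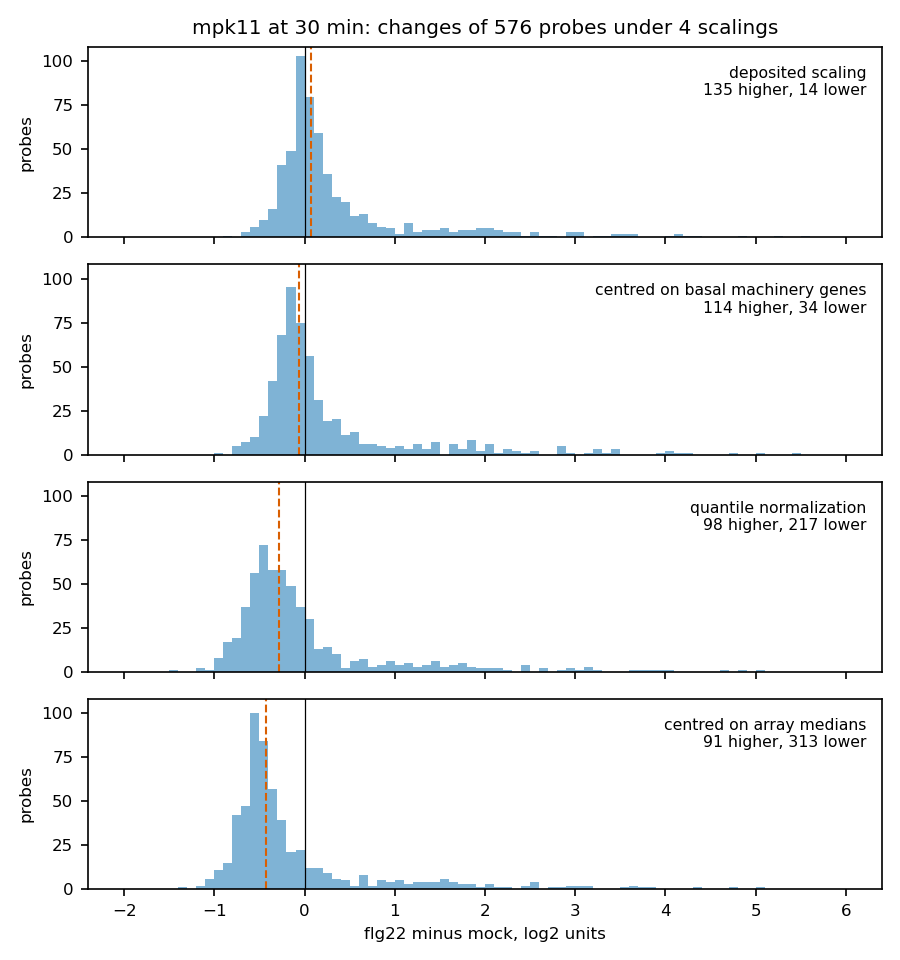
Histograms of the changes of all 576 probes (x axis, flg22 minus mock in log2 units; y axis, number of probes) under the deposited scaling and 3 alternatives, with a dashed line at the median and a solid line at 0. The median moves from 0.07 to -0.06, -0.28 and -0.43 with centring on basal genes, quantile normalization and median centring, and the right-hand tail of large rises stays in each.

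Among transcription factors, the zinc-finger repressor STZ (AT1G27730, also ZAT10), known from stress and defence responses, had the largest rise. STZ read 2.25, 1.94 and 2.60 in mock sets 1 to 3 and 7.34, 6.83 and 7.23 with flg22. The groups were far apart and the mean went up from 2.26 ± 0.33 to 7.13 ± 0.27 (SD, n = 3), an increase of 4.87 (SE 0.15; limma adjusted p = 1.43e-16). The other 4 factors outside the WRKY family did not pass. They were the homeodomain gene PHV at -0.06, the GRAS gene SCL21 at -0.07, the bHLH gene AT1G10585 at 0.07 and the Dof gene AT2G28510 at -0.13. After median centring PHV (-0.56), SCL21 (-0.57) and AT2G28510 (-0.63) were lower, and after quantile normalization 1 factor of this list was lower.

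All 4 named WRKY genes rose, beside 23.4% of all probes, with a median change of 2.23 beside 0.07 over all 576 probes. WRKY22, a factor known to act downstream of flagellin-activated MAP kinases, read 2.53, 3.10 and 2.70 in mock and 6.52, 6.004 and 6.50 with flg22. WRKY53, a regulator of senescence and defence, read 2.22, 2.14 and 2.42 against 6.11, 5.42 and 5.76. Both were separated from mock by almost 3 units or more in every array, with rises of 3.57 (SE 0.18; limma adjusted p = 3.75e-13) and 3.51 (SE 0.14; 6.15e-15). WRKY29, the close partner of WRKY22 in flagellin signalling, rose far less, from 2.77, 2.81 and 2.86 to 3.45, 3.77 and 4.04, by 0.94 (SE 0.15; limma adjusted p = 1.59e-05). WRKY6, which acts in senescence and phosphate responses, rose by 0.72 (SE 0.20; limma adjusted p = 0.00954). Under median centring and quantile normalization 3 of the 4 were higher, and WRKY6 did not pass at 0.22 and 0.21. The WRKY6 call was also lost without mock array 2 (change 0.50, limma adjusted p = 0.087), without set 2 (0.54, 0.0632) and without set 3 (0.73, 0.0694).

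Of the 7 named calcium sensor genes 6 were higher, beside 23.4% of all probes, with a median change of 1.85. After median centring 5 were higher, beside 15.8% of all probes, and after quantile normalization 5, beside 17%. AT4G27280, an EF-hand protein, had the largest rise of any named gene. It read 2.66, 3.36 and 3.33 in mock and 8.29, 8.12 and 8.57 with flg22, an increase of 5.21 (SE 0.19; limma adjusted p = 5.37e-16). The calmodulin-like gene CML42, known from calcium signalling in herbivore defence, read 2.86, 3.47 and 3.42 against 5.78, 5.999 and 6.15. It rose by 2.73 (SE 0.13; limma adjusted p = 1.99e-13), and no mock array came near a flg22 array.

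The other calcium sensors rose by smaller amounts. AT5G39670 (CML46) read 2.56, 2.41 and 2.59 in mock and 5.16, 4.12 and 4.34 with flg22, an increase of 2.02 (SE 0.18; limma adjusted p = 2.37e-09) that was largest in set 1. AT2G26190 (IQM4), a calmodulin-binding protein, rose by 1.85 (SE 0.15; 1.1e-09) and AT2G41410 (CML35) by 1.63 (SE 0.14; 3.48e-09). For AT2G41410 the mock values of 5.53, 5.37 and 5.68 lay well below 7.08, 7.18 and 7.20. AT2G41090 (CML10) rose by 0.65 (SE 0.15; limma adjusted p = 0.00193) in the deposited scaling, but its change was -0.00 (0.995) after quantile normalization, and without set 1 it missed the threshold (0.53, limma adjusted p = 0.0796). AT1G62480, a vacuolar calcium-binding protein, was at 0.26 and did not pass (limma adjusted p = 0.262).

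**Figure D3:**
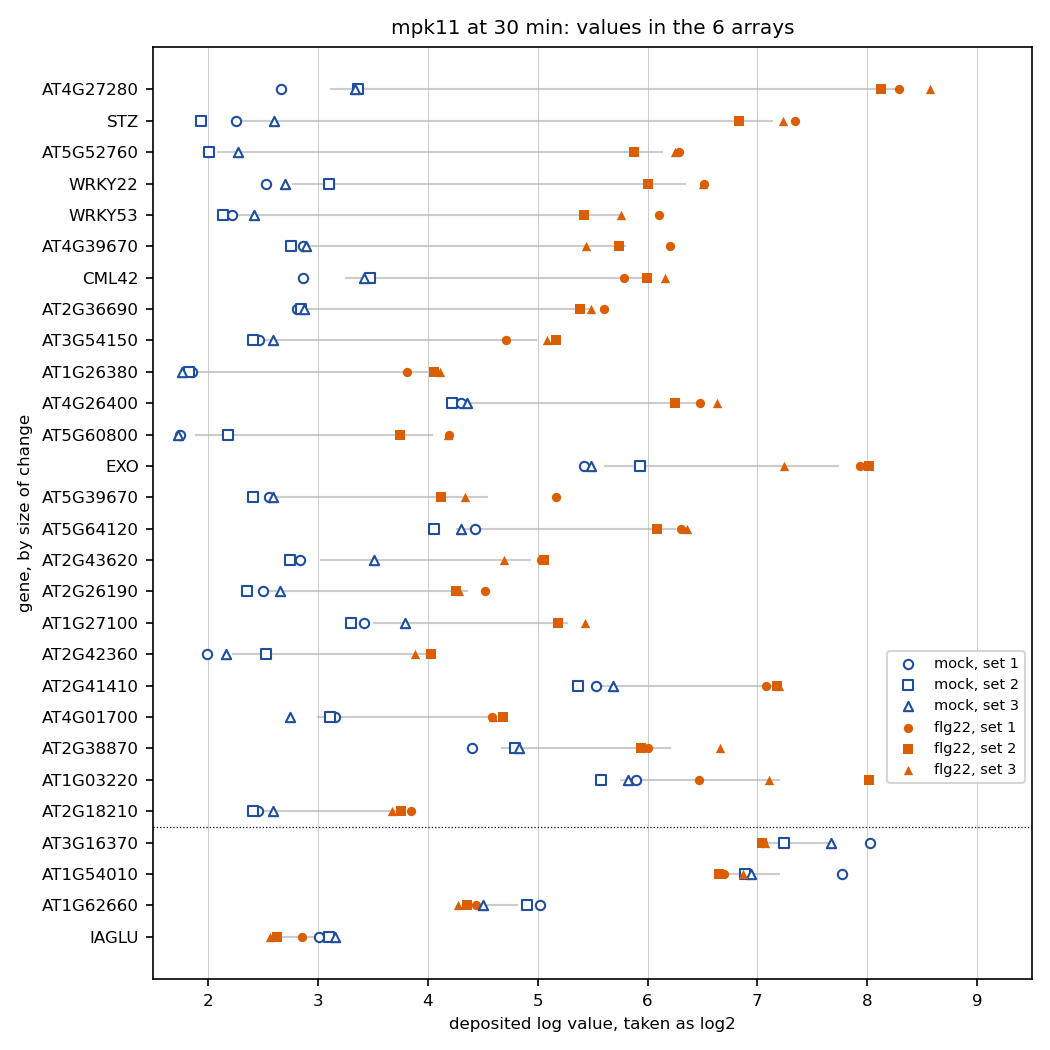
Values in the 6 arrays (x axis, deposited log value) for the 24 named genes that rose most and, below the dotted line, the 4 that fell, each labelled on the y axis. Open symbols are mock and filled symbols flg22, with the shape giving the set, and a grey line joins the group means. In each of the 24 rises the filled symbols lie to the right of all open ones, and the 4 falls span much smaller distances.

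Of the 4 named kinase genes 3 rose, beside 23.4% of all probes, and all 3 by about 1 or less. AT1G11050, a protein kinase family member, read 2.83, 2.54 and 2.99 in mock and 3.71, 3.80 and 4.16 with flg22, an increase of 1.11 (SE 0.16; limma adjusted p = 4.42e-06). AT3G09010, a receptor-like kinase, rose by 0.52 (SE 0.14; 0.00655), and AT2G23450 (WAKL14), a wall-associated kinase-like protein, by 0.51 (SE 0.15; 0.0127). The direction of this group rests on the scaling. Under median centring 1 of the 4 was higher and 1 lower, beside 15.8% and 54.3% of all probes. Under quantile normalization 2 were higher and 1 lower, beside 17% and 37.7%. With centring on basal genes 1 was higher and 0 lower, beside 19.8% and 5.9%. Without set 1 AT3G09010 was at 0.55 with a limma adjusted p of 0.0533. AT2G23450 had 3.56, 2.78 and 3.35 in mock against 3.68, 3.63 and 3.92 with flg22. It missed the threshold without the set as a block (limma adjusted p = 0.134), without set 2 (change 0.34, 0.111) and without set 3 (0.48, 0.173). It also did so without mock array 2 (0.42, 0.0751), flg22 array 2 (0.41, 0.0935) and flg22 array 3 (0.49, 0.0516). AT2G39110 (PBL38), a receptor-like cytoplasmic kinase, was at -0.06.

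Of 6 ubiquitin ligase genes, which mark proteins for degradation, 2 rose and 4 did not pass, a share near the 23.4% of all probes that rose. After median centring 2 were higher and 3 lower, and after quantile normalization 2 and 1. The RING-type gene AT4G26400 read 4.31, 4.22 and 4.36 in mock and 6.48, 6.25 and 6.63 with flg22, an increase of 2.16 (SE 0.16; limma adjusted p = 1.38e-10). AT2G42360 (ATL41), of a family known for members induced early by elicitors, read 1.99, 2.53 and 2.16 against 4.02, 4.03 and 3.88, an increase of 1.75 (SE 0.13; 1.98e-10). The other members lay between -0.09 and 0.15, so the median of the list was 0.14.

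All 3 heavy-metal-associated domain proteins, a family of small metal-binding proteins, rose under each of the scalings, beside 23.4% of all probes as deposited. AT5G52760 read 1.99, 2.003 and 2.27 in mock and 6.28, 5.88 and 6.25 with flg22, an increase of 4.05 (SE 0.13; limma adjusted p = 2.11e-16). AT5G60800 read 1.75, 2.18 and 1.73 against 4.19, 3.74 and 4.18, an increase of 2.15 (SE 0.19; 2.3e-09). AT2G36950 rose by 0.98 (SE 0.13; limma adjusted p = 1.69e-06). The arrays of the groups did not overlap for any of the 3. Of all probes 25.5% had every flg22 array above every mock array.

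In the list of chitinases, defensins and proteinase inhibitors, which are secreted defence proteins, 3 of 6 genes were higher, beside 23.4% of all probes. The chitinase family gene AT2G43620, of a group of enzymes that cleave fungal cell walls, read 2.83, 2.75 and 3.51 in mock and 5.03, 5.05 and 4.69 with flg22, an increase of 1.90 (SE 0.20; limma adjusted p = 3.57e-08). The second chitinase gene AT4G01700 rose by 1.62 (SE 0.13; 1.1e-09) and the serine proteinase inhibitor gene AT2G38870 by 1.52 (SE 0.17; 1.93e-07). For these 3 every flg22 array lay above every mock array, as for 25.5% of all probes. They were higher under all scalings. The putative chitinase CHI was at 0.07, the defensin-like gene AT3G59930 at 0.46 (limma adjusted p = 0.335) and the defensin PDF1.2, a marker of jasmonate and ethylene signalling, at 0.23 (0.765). After median centring CHI was lower (-0.43, limma adjusted p = 0.0313), and after quantile normalization 1 gene of the list was lower. Of all probes 54.3% and 37.7% were lower in these scalings. For PDF1.2 the 95% interval ran from -0.49 to 0.94, so the data leave room for a rise of almost 1 unit. GRX480, a glutaredoxin that links salicylic acid to jasmonate responses, rose by 0.57 (SE 0.11; limma adjusted p = 0.000318) in the deposited scaling and did not pass after median centring, at 0.07.

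Among enzymes of oxidation, 1 of 3 class III peroxidases and 4 of 10 other oxidoreductases rose, beside 23.4% of all probes, which in lists of this size does not set them apart. The peroxidase AT5G64120 (PRX71) read 4.43, 4.05 and 4.31 in mock and 6.30, 6.09 and 6.36 with flg22, an increase of 1.99 (SE 0.18; limma adjusted p = 4.13e-09), while AT5G19890 was at 0.11 and AT2G37130 at -0.18. The dioxygenase family gene AT2G36690 read 2.81, 2.85 and 2.87 against 5.60, 5.38 and 5.48, and rose by 2.65 (SE 0.14; 3.75e-13). AT1G26380, an FAD-linked oxidase of the berberine bridge enzyme family, rose by 2.18 (SE 0.16; limma adjusted p = 1.4e-10), from 1.85, 1.82 and 1.76 to 3.81, 4.06 and 4.11. The alcohol dehydrogenase family gene AT1G64710 rose by 1.18 (SE 0.13; 7.47e-08) and the cupredoxin gene AT4G39830 by 0.73 (SE 0.13; 8.13e-05). After median centring 3 of the 10 oxidoreductases were higher and 4 lower, and after quantile normalization 4 and 3. After each of these scalings 1 of the 3 peroxidases was higher and 1 lower, and after median centring AT4G39830 did not pass, at 0.24.

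In the deposited scaling 1 or none of the members passed in each of the next 3 lists, beside 25.9% of all probes in either direction. Of 6 tryptophan, glucosinolate and sulphur genes 1 rose, the glucosinolate transporter gene GTR1 by 0.76 (SE 0.19; limma adjusted p = 0.00369), a call lost without set 3 (0.59, 0.16), after median centring (0.27) and after quantile normalization (0.30). After median centring 4 of the 6 were lower and after quantile normalization 3. AT2G04400, the tryptophan pathway enzyme that closes the indole ring, read 4.59, 4.19 and 4.16 in mock and 4.56, 4.12 and 4.14 with flg22, practically level in each set. Of 7 glycosyltransferases none was higher and 1 was lower, but 5 were lower after median centring and 3 after quantile normalization. None of 6 chaperones passed, with changes from 0.03 to 0.17, and after median centring and quantile normalization 1 and 2 of them were lower.

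Growth and cell wall genes included both rises and falls in the deposited scaling. EXO (EXORDIUM, AT4G08950), a brassinosteroid-responsive gene of cell expansion, read 5.42, 5.93 and 5.49 in mock and 7.93, 8.01 and 7.25 with flg22, an increase of 2.12 (SE 0.16; limma adjusted p = 3.67e-10). The pectin methylesterase gene ATPMEPCRB rose by 0.67 (SE 0.13; 0.000218) and did not pass after median centring, at 0.17. The tubulin gene TUB6 was at -0.57 (limma adjusted p = 0.0619), with 8.08, 7.33 and 8.06 against 7.16, 7.51 and 7.09. Of the 10 genes of this list 2 were higher, 2 lower and 6 not passing, beside 23.4% higher and 2.43% lower of all probes. After median centring 1 was higher and 6 were lower, beside 15.8% and 54.3%. After quantile normalization 2 were higher and 5 lower, beside 17% and 37.7%. The 2 lower genes, given below, missed the threshold without mock array 1.

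In the deposited scaling only 4 of the 181 named genes fell (2.21%, beside 2.43% of all probes), each by less than 0.6. After median centring 89 named genes were lower, after quantile normalization 60 and after centring on basal genes 9. Of all probes 54.3%, 37.7% and 5.9% were lower in these scalings. After median centring the changes of the 4 genes ran from -1.09 (AT3G16370) to -0.91 (IAGLU). AT3G16370, a GDSL-type lipase gene, read 8.03, 7.24 and 7.67 in mock and 7.05, 7.04 and 7.07 with flg22, and fell by 0.59 (SE 0.17; limma adjusted p = 0.0128). AT1G54010, also of the GDSL family, read 7.77, 6.89 and 6.94 against 6.70, 6.65 and 6.87, and fell by 0.46 (SE 0.17; 0.0462). Mock array 1 was the highest in both genes, and without it their changes were -0.40 (limma adjusted p = 0.137) and -0.23 (0.437). AT3G16370 also missed the threshold without set 1, set 3 or flg22 array 1 (limma adjusted p from 0.0514 to 0.139). AT1G54010 did so without the set as a block (limma adjusted p = 0.118) and without set 1, set 2, flg22 array 1 or flg22 array 2, with changes from -0.15 to -0.57 (0.0569 to 0.793). AT1G62660, a vacuolar invertase gene that splits sucrose, fell by 0.45 (SE 0.12; limma adjusted p = 0.0078), and IAGLU, which conjugates the auxin indole-3-acetic acid to glucose, fell by 0.41 (SE 0.14; 0.034). For IAGLU the mock values of 3.01, 3.10 and 3.15 and the flg22 values of 2.86, 2.62 and 2.56 were separate but near each other. The AT1G62660 call was lost without set 1, set 2, mock array 1 or flg22 array 2, at changes of -0.36 to -0.41 (limma adjusted p from 0.0517 to 0.0924). The IAGLU call was lost without set 2, set 3 or array 2 or 3 of either treatment, at -0.31 to -0.41 (0.0695 to 0.384). In a fit of only the 6 arrays compared, with the set as a block, AT1G62660 (limma adjusted p = 0.0553), IAGLU (0.0952) and AT1G54010 (0.12) missed the threshold. Without the block in that fit AT3G16370 (limma adjusted p = 0.0831), AT1G54010 (0.301), AT1G62660 (0.12) and IAGLU (0.0947) all missed it.

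The falls as a class were sensitive to single arrays. The 14 lower probes became 3 without set 1, 6 without set 3, 5 without mock array 1, 8 without flg22 array 1 and 9 without flg22 array 3. The number of higher probes stayed between 108 and 129 over every array or set left out.

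The basal machinery served as a look at genes outside defence. Of 3 translation genes 1 rose, the ribosomal protein gene AT2G37190 by 0.71 (SE 0.22; limma adjusted p = 0.0201), while the elongation factor gene AT5G60390 was at -0.26 (0.422). The rise of AT2G37190 missed the threshold without the set as a block (limma adjusted p = 0.0693), and also without set 1 (0.44, 0.326), set 3 (0.64, 0.102) or array 1 or 3 of either treatment (0.55 to 0.72, 0.0511 to 0.14). The call was also lost after median centring (0.21, limma adjusted p = 0.439), quantile normalization (0.05, 0.848) and centring on basal genes (0.57, 0.0502). None of 3 proton pump genes of the vacuole passed, and 1 of 6 respiration genes and 1 of 10 vesicle traffic genes did, beside 25.9% of all probes. After median centring 1 translation, 2 proton pump, 2 respiration and 7 vesicle traffic genes were lower and none higher. After quantile normalization 0, 1, 2 and 5 were lower. The genes that passed as deposited were AT4G20150 at 0.36 (limma adjusted p = 0.0436) and PRA1.B4 at 0.45 (0.00219), and their changes were -0.14 and -0.05 after median centring. AT4G20150 also lost its call without the set as a block (limma adjusted p = 0.168), without any 1 set (0.17 to 0.45, 0.0555 to 0.544), without mock array 1 (0.16, 0.451) and without any 1 flg22 array (0.33 to 0.39, 0.065 to 0.13). PRA1.B4 lost its call without set 1 (0.41, limma adjusted p = 0.0528) or set 3 (0.41, 0.0989), and in a fit of only the 6 arrays with the block (0.0539) or without it (0.126).

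**Figure D4:**
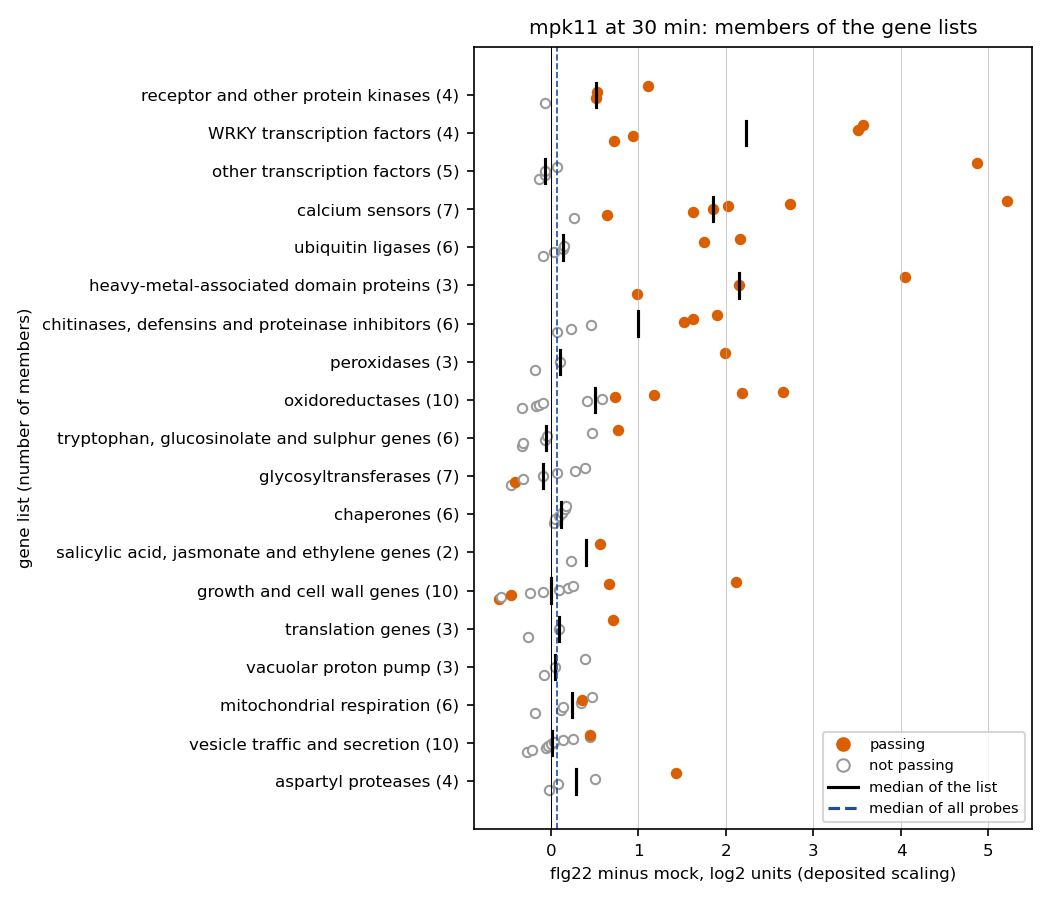
Changes (x axis, flg22 minus mock in log2 units) of the members of each gene list (y axis). Filled points are genes that passed the adjusted p threshold. A bar marks the median of each list, and a dashed line the median of all probes. WRKY genes, calcium sensors and heavy-metal-associated domain proteins have medians of 2.23, 1.85 and 2.15, and the lists of basal functions have medians from 0.01 to 0.24 in the deposited scaling, which are below 0 after median centring.

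Some genes with large rises belong to none of these groups. AT4G39670, a glycolipid transfer protein family member, read 2.86, 2.76 and 2.89 in mock and 6.204, 5.74 and 5.44 with flg22, an increase of 2.96 (SE 0.19; limma adjusted p = 2.25e-11). AT3G54150, a methyltransferase family member, read 2.46, 2.41 and 2.59 against 4.71, 5.17 and 5.09, an increase of 2.50 (SE 0.16; 1.25e-11). AT1G27100 and AT2G18210 rose by 1.76 and 1.28, with no overlap between groups in either.

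AT1G03220, an aspartyl protease gene, was the most uneven of the 24 largest rises. It read 5.89, 5.57 and 5.82 in mock and 6.47, 8.01 and 7.11 with flg22, so that its difference was 0.58, 2.44 and 1.28 in sets 1 to 3. The groups did not overlap, and the fitted rise was 1.43 (SE 0.33; limma adjusted p = 0.00153). Without set 2 the rise was 0.93 (limma adjusted p = 0.0487), and after quantile normalization 0.76 (0.0579). The 3 other aspartyl protease genes did not pass, with changes from -0.03 to 0.50.

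Of 395 unnamed probes 85 (21.5%) were higher and 10 lower, beside 50 (27.6%) and 4 of the 181 named. The largest rise of the whole table was that of the unnamed probe 125, an increase of 5.59 (SE 0.20). It read 1.198, 0.86 and 0.76 in mock and 6.74, 6.08 and 6.77 with flg22. The lowest values of the 3 mock arrays were 0.74, 0.86 and 0.70. Its mock values in sets 2 and 3 were thus at or near the bottom of their arrays, which makes the size of this rise uncertain. Probe 539 rose by 4.40, and probes 46 and 504 fell by 0.86 and 0.67. For probe 504 the change was -0.43 (limma adjusted p = 0.168) without set 1. The largest change that did not pass was 1.99 for probe 169, chosen here after its values were seen, with 4.35, 4.71 and 5.08 in mock and 7.08, 5.81 and 7.21 with flg22 (limma adjusted p = 0.0564).

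The design allows a direct test of whether this response differed in the mutant from that of wild-type seedlings. For the difference of the changes, mpk11 less wild type at 30 min, 0 of 576 probes passed in limma (0%), 22 had an unadjusted p below 0.05 and the smallest adjusted p was 0.988. The median half-width of the 95% interval was 0.46, so for a typical probe the data leave room for differences of about that size. Wild-type seedlings had 127 higher (22%) and 5 lower (0.868%) probes, and 120 were higher in both genotypes, which is 88.9% of those of mpk11 and 94.5% of those of wild type. The mpk11 and wild-type median changes were 2.23 and 2.20 for the WRKY genes, 1.85 and 1.71 for the calcium sensors, and 2.15 and 1.72 for the heavy-metal-associated domain proteins.

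The 5 named genes with the smallest unadjusted p in that test show the size of what was left. AT5G52760 rose by 4.05 in mpk11 and 3.43 in wild type, a difference of 0.62 (95% interval 0.23 to 1.01). AT4G39670 rose by 2.96 against 3.73, a difference of -0.77 (-1.34 to -0.20), and AT2G28400 by 1.11 against 1.67, a difference of -0.56 (-1.03 to -0.09). AT2G38870 differed by 0.63 (0.12 to 1.15) and AT1G64710 by 0.46 (0.08 to 0.83). For all 5 the limma adjusted p was 0.988, so none of these differences held over the 576 probes.

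The 30 min response of mpk11 was then set against its response at 3 h, from other arrays. All counts of this comparison are from the deposited scaling. At 3 h 220 probes were higher (38.2%) and 56 lower (9.72%). The test of the difference between times found 123 probes with a larger value at 3 h (21.4%) and 90 with a smaller one (15.6%). Of the 135 probes higher at 30 min, 54 had a smaller response at 3 h, 30 a larger one and 51 no difference that passed. Among probes that had not passed at 30 min, 88 had a larger response at 3 h and 35 a smaller one. Larger and smaller refer to the signed change, so a smaller response can also be a fall that appears or deepens at 3 h.

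The named genes with the largest loss of response between the times were the EF-hand gene AT4G27280, both metal-binding genes AT5G52760 and AT5G60800, STZ, EXO and the RING-type gene AT4G26400. AT4G27280 rose by 5.21 at 30 min and by 1.15 at 3 h, a difference of -4.06 (SE 0.26; limma adjusted p = 1.28e-10), and STZ by 4.87 and 2.42, a difference of -2.45 (SE 0.22; 1.32e-08). AT5G52760 rose by 4.05 and 1.24, a difference of -2.81 (SE 0.19; limma adjusted p = 1.64e-10). After 3 h, 3 strong early rises were no longer past the threshold, with changes of -0.03 for AT5G60800, 0.02 for EXO and 0.32 for AT4G26400. The differences were -2.18, -2.10 and -1.84. For EXO the mock mean was itself 5.61 at 30 min and 4.67 at 3 h, so its mock level also differed between the times.

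The WRKY genes went in both directions between the times. WRKY22 and WRKY53 had smaller responses at 3 h (2.58 and 2.46), WRKY29 had a larger one (2.64 against 0.94; limma adjusted p of the difference 1.03e-06), and WRKY6 was at 1.41 with no difference that passed (0.0635). Of the 7 calcium sensors 3 had a smaller response at 3 h and none a larger one, beside 15.6% and 21.4% of all probes. CML42 and AT2G41410 were nearly as high as before, at 2.33 and 1.62.

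Of the list of 6 chitinases, defensins and proteinase inhibitors 4 had a larger response at 3 h and none a smaller one, and of the 10 oxidoreductases 4 and none. Of all probes 21.4% had a larger and 15.6% a smaller response at 3 h. AT2G43620 rose by 1.90 and then 6.07, AT2G38870 by 1.52 and 5.11, and AT4G01700 by 1.62 and 4.54, with limma adjusted p of the differences of 1.38e-10, 1.91e-10 and 1.28e-10. AT5G64120 rose by 1.99 and 4.72, and AT1G26380 by 2.18 and 4.77. AT2G04400, which was level at 30 min, was higher by 2.96 at 3 h (difference 3.00, SE 0.19; limma adjusted p = 1.28e-10).

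Changes that passed at both times with opposite signs were found for 2 named genes and the unnamed probe 329. CDI (AT1G64980), a cadmium-induced gene, read 4.32, 4.21 and 4.28 in mock sets 1 to 3 at 30 min, against 5.43, 4.98 and 5.50 with flg22, an increase of 1.04 (SE 0.12; limma adjusted p = 1.95e-07). At 3 h it fell by 0.38 (limma adjusted p = 0.012). IAGLU, which fell by 0.41 at 30 min, rose by 1.14 at 3 h (limma adjusted p = 3.42e-07).

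**Figure D5:**
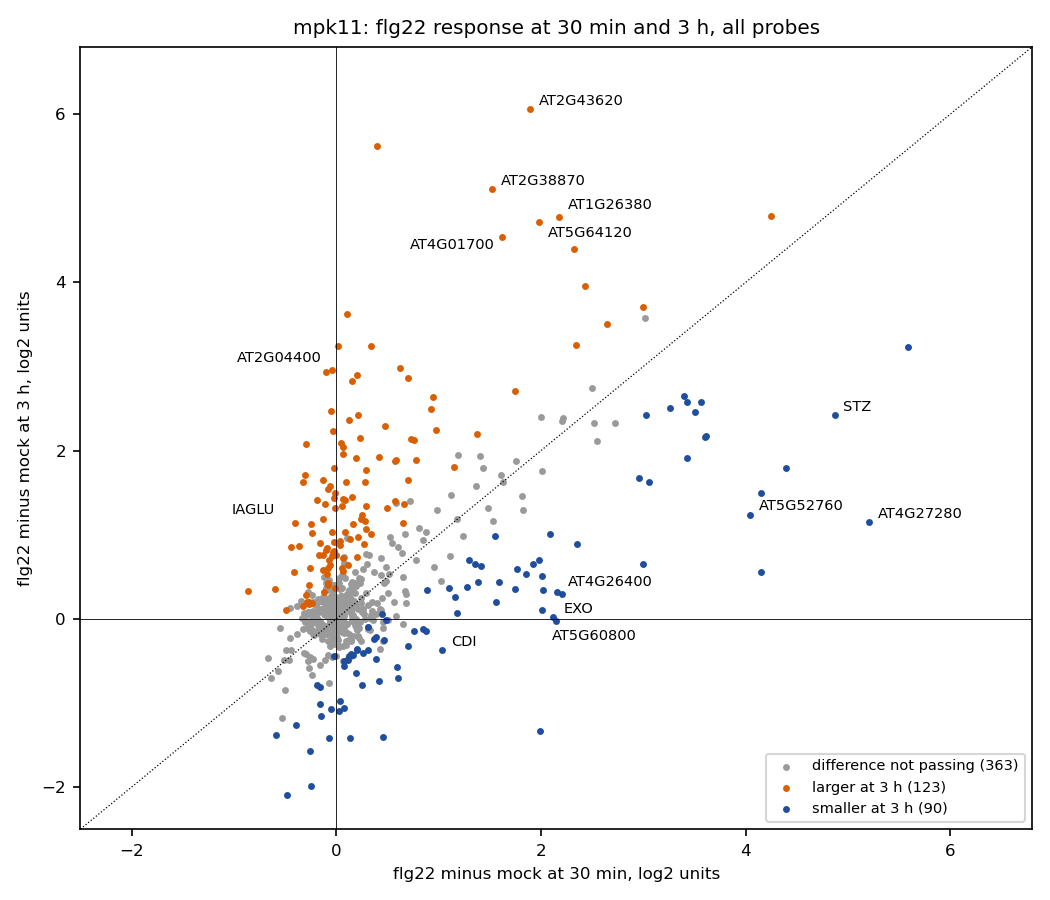
Change with flg22 in mpk11 at 30 min (x axis) against the change at 3 h (y axis), both in log2 units, for all 576 probes. Orange points are the 123 probes with a larger response at 3 h and blue points the 90 with a smaller one in the limma test of the difference. Larger and smaller refer to the signed change in the deposited scaling, and the dotted line marks equal changes. AT4G27280 and STZ lie far below the line, and AT2G43620 and AT2G38870 far above it.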

How the data were processed

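Each array held RNA of one sample, labelled with one dye (Alexa555), and Cy5 marked spots of poor quality for removal, per the labels. The authors deposited 1 value per probe and array, on a log scale taken as log2 from its range (0.450 to 11.4 over 24 arrays, with 0 missing). What base, scanner, background correction or normalization was used is not given in the sources. Changes would scale with another base, and the p-values would not change.

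Gene names came from the platform's probe table, 180 of them updated by gene identifier through RefSeq (TAIR10.1). Probe positions and sequences were not used here. limma 3.58.1 in R 4.3.3 fitted 8 group means and the set number as a block to all 24 arrays and 576 probes, without a filter (prior degrees of freedom 6.45), with Benjamini-Hochberg adjustment over all probes. Tables were made with Python 3.11.15 and pandas 2.3.3. The fit was tested on simulated data.

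Set numbers pair the arrays compared: deviations of same-numbered mock and flg22 arrays from their group means correlated at 0.192, 0.334 and 0.405, all over 0.1. Differently numbered arrays gave -0.34 to 0.05, which largely follows from the first. The members and gene lists were chosen with earlier results of these data known, and the lists were completed by hand from gene families once the probe names were known. Named were the 24 genes that rose most and up to 12 that fell most with the same direction in all 3 sets, the 5 genes with the smallest p for the genotype difference, 6 in each direction for the time difference, up to 4 unnamed probes, and examples of each list. Genes whose response changed sign between the times were added after their values were seen. Alternatives were other scalings, a filter on dim probes, another prior, no block or a random block, only the compared arrays, and leaving out each array or set.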

Additional observations from a re-analysis of the deposited data

Results flagged for a closer look

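Named genes whose mpk11 response differed between 30 min and 3 h in the limma test of the difference are given here as the 3 h change less the 30 min change, in log2 units. The difference was 4.17 for the chitinase gene AT2G43620, 3.58 for the proteinase inhibitor gene AT2G38870, 3.00 for the tryptophan pathway gene AT2G04400 and 2.92 for the chitinase gene AT4G01700. It was 2.73 for the peroxidase AT5G64120 and 2.60 for the oxidase AT1G26380. The negative differences were -4.06 for the EF-hand gene AT4G27280, -2.81 for AT5G52760, -2.45 for STZ, -2.18 for AT5G60800, -2.10 for EXO and -1.84 for the RING-type gene AT4G26400. CDI (-1.41) and IAGLU (1.55) changed sign between the times. Each of these values compares 12 arrays, and the 2 times share none of them. Groups of 3 arrays were too small for a search for single arrays far from the rest.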

How the results depend on the processing

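The count of probes higher with flg22 lay within a factor of 1.5 of 135 under every alternative run. The count of lower probes did not. It was 14 in the deposited scaling, 313 with arrays centred on their medians (404 probes passing in all), 217 after quantile normalization (315 in all) and 34 with centring on basal machinery genes. It was 9 with no replicate block, 9 with only the compared groups and the block, and 4 with only the compared groups and no block. Centring on basal genes was chosen after seeing the data, in place of a housekeeping list that was not used here. With a single array or set left out, 114 to 147 probes passed, 108 to 129 higher and 3 to 20 lower. For the genotype difference 0 probes passed under each alternative run. For the time difference 148 to 216 passed with an array or set left out, 84 to 124 larger at 3 h and 64 to 92 smaller. Counts of the time difference under the other scalings are not given here. Among the genes named in the text that passed as deposited, the changes that reversed were those of AT4G20150 (-0.14 after median centring, -0.10 after quantile normalization), PRA1.B4 (-0.050 after median centring) and AT2G41090 (-0.0013 after quantile normalization). Named genes that had not passed as deposited also changed sign, for example CHI from 0.07 to -0.43 after median centring. The cause was not tested. In the fit of all 24 arrays without the pairing block, the calls lost among the genes named were those of AT1G54010, AT2G23450, AT2G37190 and AT4G20150. The fit of only the compared arrays without the block lost these and also AT3G16370, AT1G62660, IAGLU and PRA1.B4. The promoter motif search was not run. Signal over background is not given in the values used, so limits of detection for low probes are unknown.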
